A study of Mus musculus with 20 samples.

Results

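Glycolysis splits glucose into pyruvate and lactate, and T cells are known to raise it when they are activated and divide. The transcription factor HIF-1 alpha, encoded by Hif1a, is stabilised at low oxygen or after T cell activation and switches on many of the pathway's enzymes. Transcript levels of these genes do not measure the flux through the pathway.

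The genes described here are Hif1a and 9 enzymes of glycolysis: Hk1, Hk2, Pfkp, Aldoa, Gapdh, Pgk1, Pgam1, Pkm and Ldha. They were chosen by name, and each was read from its probe set with exactly 1 gene symbol that had the highest mean over all 20 arrays. This gave values for 9 of the 10 listed genes, out of 17097 genes in all. The probe set of Pgam1 (phosphoglycerate mutase) is listed with a second symbol and was not analysed here.

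RNA came from CD44+CD8+ effector T cells purified from mouse lungs that carried tumours of 4T1, a mouse mammary carcinoma line. The agents were given intranasally. They were SD-101, anti-PD-1 and a-CD4 together (labelled SD-101+anti-PD-1+a-CD4, here the triple treatment, 4 arrays), SD-101 with anti-PD-1 (SD-101+anti-PD-1, 5 arrays), SD-101 alone (6 arrays) and saline (Saline-CTRL, 5 arrays). SD-101 is a ligand of TLR9, anti-PD-1 blocks a receptor that restrains T cells, and the labels do not say what a-CD4 does; strain, age, doses and times are not given in the sources used here. All groups shared the tumour, and no tumour-free lung was analysed here. The labels do not say whether each array stands for its own animal, and p-values then measure only the spread among these arrays, which may be technical.

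The values are log2 expression values as the authors deposited them, so a difference of 1 is a doubling of the fluorescence. Precision is limited by the number of arrays. Cd8a, a gene of the sort, was between 9.45 and 11.66 on all arrays. The purified samples also carried transcripts of other cells, and since these are bulk samples, fewer cells of a type and less RNA per cell cannot be told apart. On the scale of the arrays the 9 genes ranked between the 71.6th (Hk2) and the 99.5th (Gapdh) percentile of mean log2 expression over all genes. Probe sets differ in how well they bind, so levels are compared here between groups and not between genes.

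Because HIF-1 binds short core motifs in hypoxia response elements, the promoters of 5 of the genes are shown, from 250 bases before to 50 after an annotated start site: the 4 that rose in the comparisons below, and Ldha, a textbook HIF-1 target. The sequences are those of RefSeq (GRCm38.p6), read 5′ to 3′ on the strand of the gene. The capitals mark ACGTG and GCGTG, the cores of the hypoxia response element, on either strand (CACGT and CACGC are their reverse complements); CACGTG, the E-box that Myc also binds, holds ACGTG on both strands.
Hif1a, chr12:73907617-73907916, plus strand: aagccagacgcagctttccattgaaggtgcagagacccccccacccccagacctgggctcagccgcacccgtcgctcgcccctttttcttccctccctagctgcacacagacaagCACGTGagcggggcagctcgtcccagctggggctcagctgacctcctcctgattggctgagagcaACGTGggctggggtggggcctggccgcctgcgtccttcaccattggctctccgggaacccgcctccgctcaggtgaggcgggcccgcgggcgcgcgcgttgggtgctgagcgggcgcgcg
Hk1, the downstream of 2 windows, chr10:62340372-62340671, minus strand: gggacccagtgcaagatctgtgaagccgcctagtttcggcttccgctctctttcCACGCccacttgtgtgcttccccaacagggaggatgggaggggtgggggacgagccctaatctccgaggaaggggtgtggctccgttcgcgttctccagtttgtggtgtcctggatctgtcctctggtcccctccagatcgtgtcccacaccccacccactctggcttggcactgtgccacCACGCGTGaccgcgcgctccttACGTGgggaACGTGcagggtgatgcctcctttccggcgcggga
Pfkp, chr13:6648722-6649021, minus strand: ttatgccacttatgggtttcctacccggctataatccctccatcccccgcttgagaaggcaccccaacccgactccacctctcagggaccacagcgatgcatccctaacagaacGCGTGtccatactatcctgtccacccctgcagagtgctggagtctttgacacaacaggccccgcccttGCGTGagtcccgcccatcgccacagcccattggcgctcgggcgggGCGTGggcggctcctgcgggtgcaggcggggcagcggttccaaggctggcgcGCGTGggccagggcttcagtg
Gapdh, chr6:125165724-125166023, minus strand: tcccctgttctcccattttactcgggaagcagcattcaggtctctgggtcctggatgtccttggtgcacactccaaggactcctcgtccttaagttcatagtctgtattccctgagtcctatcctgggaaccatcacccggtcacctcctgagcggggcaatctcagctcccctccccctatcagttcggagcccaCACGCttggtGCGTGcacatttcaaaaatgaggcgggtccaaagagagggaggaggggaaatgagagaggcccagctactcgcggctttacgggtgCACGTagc
Ldha, the upstream of 2 windows, chr7:46845554-46845853, plus strand: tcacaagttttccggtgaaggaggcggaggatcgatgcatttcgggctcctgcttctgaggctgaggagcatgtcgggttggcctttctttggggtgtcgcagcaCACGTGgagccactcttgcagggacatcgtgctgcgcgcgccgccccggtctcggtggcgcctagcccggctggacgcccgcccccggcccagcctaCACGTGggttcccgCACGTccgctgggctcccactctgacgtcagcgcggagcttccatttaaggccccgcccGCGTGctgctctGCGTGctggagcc

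All 9 genes had at least 1 window with ACGTG or GCGTG, and 11 of their 14 windows held one. The other window of Hk1 held neither, and windows 2 and 3 of Aldoa overlap and hold the same match. The shares that follow are per window and were not matched for base composition. Of 32851 mouse promoter windows of the same 300 bases, 43.8% held at least 1 of these motifs, 19.6% ACGTG, 32.4% GCGTG and 7.15% CACGTG. The window of Ldha held 5 matches to ACGTG and 2 to GCGTG, with 2 copies of CACGTG among them. The window of Hif1a held 3 matches to ACGTG and none to GCGTG, while that of Pfkp held 4 matches to GCGTG and none to ACGTG. A match in a window of this kind is a description of the letters and does not show binding.

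Cells from lungs given SD-101, anti-PD-1 and a-CD4 had higher mean log2 levels of all 9 genes than cells from saline lungs, by 0.39 to 0.69. Of the 9, 4 rose by the moderated test in limma with Benjamini-Hochberg adjustment over all genes (adjusted p under 0.05): Hif1a, Hk1, Pfkp and Gapdh. Over all genes tested, 4.09% rose in this comparison and 7.12% changed in either direction. Shares and medians over all genes, here and below, were not matched for expression level. Of the 17097 genes, 8948 had a mean log2 level of at least 5, as had all 9 genes described. The median log2 difference was 0.52 over the 9 genes and 0.04 over all genes, and 56.7% of all genes had a difference above 0. With the mean of 19 cell cycle genes as a term of the fit, 6 of the 9 differences were negative. The ranges of that mean did not overlap between these groups, and 4 of 17097 genes were called in that fit.

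Hif1a, which encodes the oxygen-regulated subunit of HIF-1, had log2 levels of 9.87, 9.60, 9.74 and 9.84 with the triple treatment, against 9.18, 9.54, 8.93, 9.34 and 9.23 with saline. Each triple-treated array lay above each saline array, as for 3 of the 9 genes in all and for 4.84% of all genes. The log2 difference was 0.52 (SE 0.114, 1.43-fold, adjusted p = 0.00932, limma). The gene lies at chr12:73901324-73947554. A second probe set of Hif1a, at a mean level of 3.17, differed by -0.15, and with the mean of both probe sets the difference was 0.18 and not called (adjusted p = 0.230).

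Hk1, hexokinase 1, traps glucose in the cell by phosphorylation. Its log2 levels were 8.46, 8.47, 8.67 and 8.56 with the triple treatment, against 7.88, 7.91, 8.09, 8.19 and 8.36 with saline, again without overlap. The log2 difference was 0.46 (SE 0.102, 1.37-fold, adjusted p = 0.0105, limma), and a second probe set differed by 0.40. The gene lies at chr10:62268855-62379920.

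Pfkp, the platelet-type subunit of phosphofructokinase, catalyses the committed step of glycolysis. Its log2 levels were 9.41, 9.38, 9.51 and 9.47 with the triple treatment, against 8.37, 8.70, 8.67, 9.12 and 9.08 with saline. The triple-treated arrays lay close together and all above the saline arrays. The log2 difference was 0.65 (SE 0.134, 1.57-fold, adjusted p = 0.00598, limma), the highest of the 4 genes that rose. A second probe set, at a low mean level of 3.66, differed by 0.04, and the mean of both differed by 0.34 (adjusted p = 0.215, not called). The gene lies at chr13:6579874-6649060.

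Gapdh, glyceraldehyde-3-phosphate dehydrogenase, is often used as a reference gene. Its log2 levels were 12.46, 12.65, 12.25 and 12.34 with the triple treatment, against 12.06, 11.82, 11.67, 12.28 and 11.75 with saline. Saline array 4, at 12.28, lay above the lowest triple-treated array, and the other saline arrays lay below all of them. The log2 difference was 0.51 (SE 0.13, 1.43-fold, adjusted p = 0.0219, limma). It was not called without saline array 3, triple-treated array 1 or triple-treated array 2 (adjusted p = 0.0694, 0.0537 and 0.0715). The probe set may also bind transcripts of related sequences, as its name ends in s_at. The array's own control probe sets for Gapdh, at its 3' end, middle and 5' end, differed by 0.58, 0.61 and 0.53 in the same comparison (adjusted p = 0.0306, 0.0444 and 0.0333, limma). Those for b-actin differed by 0.14, 0.18 and 0.14 and were not called (adjusted p = 0.234, 0.147 and 0.195, limma). Their unadjusted p were 0.0478, 0.0214 and 0.0347 (limma). The log2 gap between the 5' and 3' probe sets of Gapdh, a sign of RNA integrity, averaged 0.29 ± 0.107 with the triple treatment and 0.35 ± 0.116 with saline (SD, n = 4 and 5).

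The 5 other enzymes were not called against saline, and their triple-treated and saline arrays overlapped. Hk2, the inducible hexokinase, differed most and varied most, with a mean log2 level of 7.78 ± 0.637 with the triple treatment and 7.09 ± 0.95 with saline (SD, n = 4 and 5). Its log2 difference was 0.69 (adjusted p = 0.428, limma). Aldoa, the aldolase of muscle and most tissues, differed by 0.44 (adjusted p = 0.251), and its 3 other probe sets by 0.37 to 0.47. All 4 are of a type that may bind related transcripts (x_at). Pgk1, which makes the first ATP of the pathway, differed by 0.54 (adjusted p = 0.168), and its second probe set by 0.25. Pkm, pyruvate kinase, differed by 0.64 (adjusted p = 0.141), and Ldha, the lactate dehydrogenase subunit that favours lactate, by 0.39 (adjusted p = 0.137). At an unadjusted p under 0.05, 7 of the 9 genes passed, as did 3560 of all 17097 genes.

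**Figure D1:**
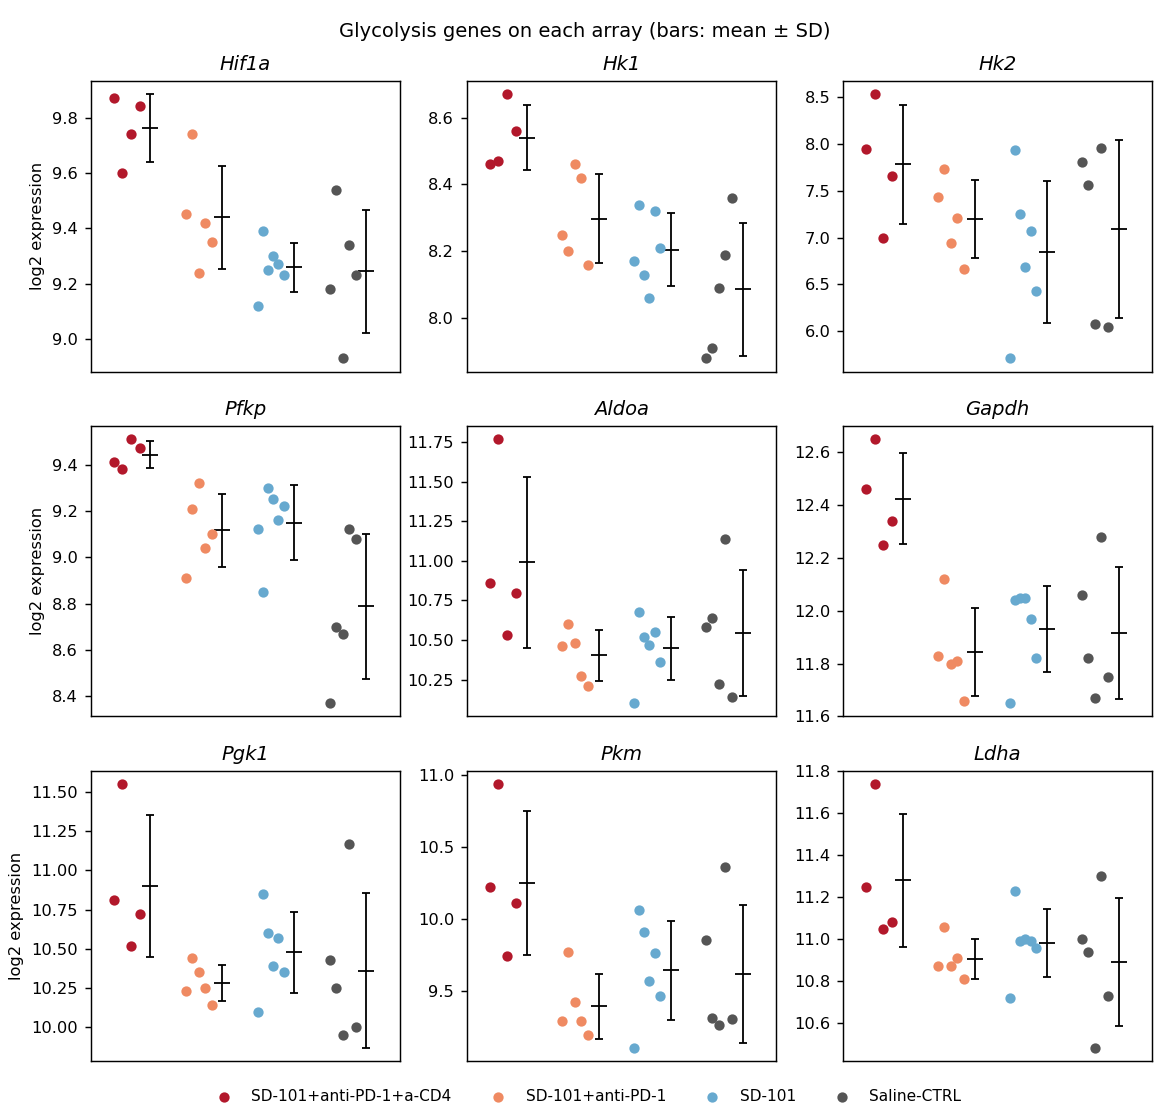
Log2 expression of the 9 glycolysis genes (y axis of each panel) on each of the 20 arrays, with 1 point per array and the mean ± SD at its right; the groups run from the triple treatment at the left to Saline-CTRL at the right. For Hif1a, Hk1 and Pfkp the 4 arrays of the triple treatment lie above all saline arrays, while for Aldoa, Pgk1, Pkm and Ldha 1 saline array, replicate 4, lies above the other 4.

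The comparison with SD-101 alone had the same 4 arrays on its triple-treated side. All 9 genes were again higher on average, by 0.29 to 0.93 in log2, with a median of 0.50 against 0.03 over all genes, of which 55.2% were above 0. Hif1a was the 1 gene of the 9 that rose (0.573% of all genes rose; 0.983% were called in either direction). It had log2 levels of 9.87, 9.60, 9.74 and 9.84 with the triple treatment, against 9.12 to 9.39 (median 9.26, n = 6) with SD-101. The groups did not overlap, and the log2 difference was 0.50 (SE 0.109, 1.42-fold, adjusted p = 0.0362, limma). Hk1, Pfkp and Gapdh also had all 4 triple-treated arrays above all 6 SD-101 arrays, a separation that 3.0% of all genes had, but were not called. Their log2 differences were 0.34 (adjusted p = 0.0999), 0.29 (adjusted p = 0.268) and 0.50 (adjusted p = 0.0579). For Hk2 the difference was 0.93, and its adjusted p was 0.291. The call of Hif1a was lost, at adjusted p of 0.05 to 0.1, in 9 of the 20 fits that left out 1 array (SD-101 arrays 1, 3, 4 or 5, SD-101+anti-PD-1 array 4, or any of the 4 triple-treated arrays), and at 0.0526 when each array was centred on its median.

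Against SD-101+anti-PD-1, the same 4 arrays were again the higher ones on average for all 9 genes, by 0.24 to 0.86 in log2 (median 0.58, against 0.00221 over all genes; 50.5% of all genes were above 0). Gapdh rose, while 0.948% of all genes rose and 2.13% were called in either direction. Its log2 levels were 12.46, 12.65, 12.25 and 12.34 with the triple treatment, against 11.83, 12.12, 11.80, 11.81 and 11.66 with SD-101+anti-PD-1. No array of one group lay within the range of the other, and the log2 difference was 0.58 (SE 0.13, 1.5-fold, adjusted p = 0.0263, limma). The call was lost, at adjusted p of 0.0552 to 0.109, in 5 of 20 fits without 1 array (triple-treated arrays 1 or 2, or SD-101+anti-PD-1 arrays 1, 4 or 5). It was also lost with the cell cycle mean (19 cell cycle genes) as a term of the fit, at a log2 difference of 0.17 (adjusted p = 0.878, limma). In that fit no gene at all was called in this comparison.

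Hk1, Pfkp and Pgk1 were separated in the same way without being called. For Pgk1 the log2 levels were 10.81, 11.55, 10.52 and 10.72 with the triple treatment, against 10.23, 10.44, 10.35, 10.25 and 10.14 with SD-101+anti-PD-1, a log2 difference of 0.62 (adjusted p = 0.150, limma). Such separation was seen in 3.92% of all genes. Pkm had the largest difference of the 9, 0.86 (SE 0.251, adjusted p = 0.0778, limma), and Hif1a differed by 0.32 (adjusted p = 0.140). One array of SD-101+anti-PD-1, replicate 2 at 9.74, reached the range of the triple-treated arrays for Hif1a.

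**Figure D2:**
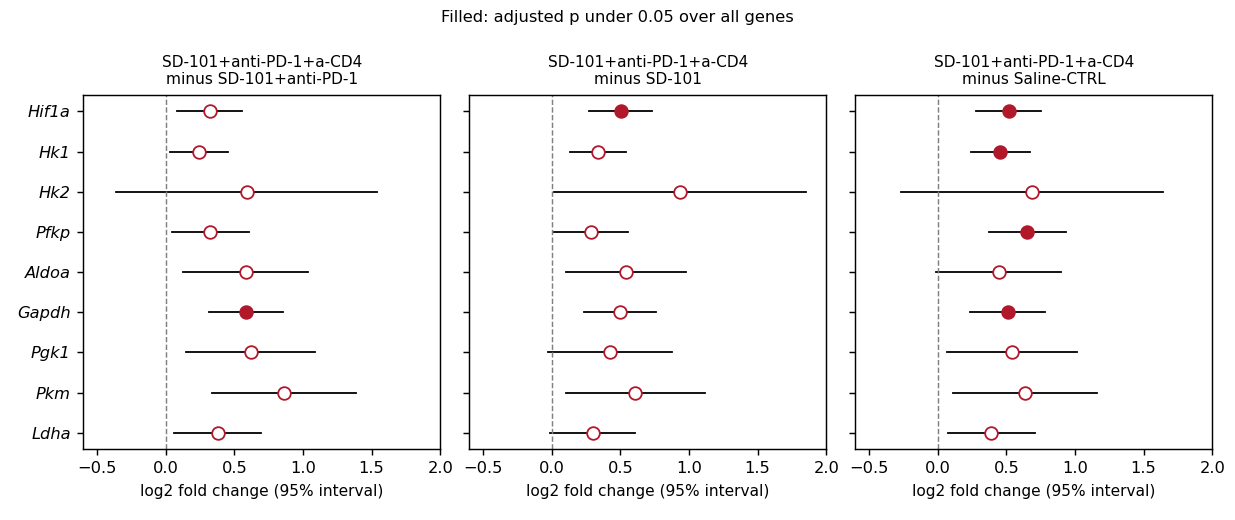
Log2 fold change (x axis) of each gene in the triple treatment minus each of the 3 other groups, with 95% intervals of the limma fit; filled points had an adjusted p under 0.05 over all genes. Every point lies above 0, and the intervals of Hk2 are the widest.

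The comparisons without a-CD4 called none of the 9 genes. Between SD-101 and saline the log2 differences ran from -0.25 for Hk2 to 0.36 for Pfkp (adjusted p = 0.36 to 0.992, limma), and 0.333% of all genes were called. Pfkp was the 1 gene of the 9 with an unadjusted p under 0.05 (1414 of all 17097 genes had one). Its log2 level was 8.85 to 9.30 (median 9.19, n = 6) with SD-101, against 8.37, 8.70, 8.67, 9.12 and 9.08 with saline, and the groups overlapped. Between SD-101+anti-PD-1 and saline the differences ran from -0.22 for Pkm to 0.33 for Pfkp (adjusted p = 0.152 to 0.983, limma), where 5.63% of all genes were called. Of the 9 genes, 2 had an unadjusted p under 0.05 there, as had 3183 of all 17097 genes. Between SD-101+anti-PD-1 and SD-101 the differences ran from -0.25 for Pkm to 0.34 for Hk2 (adjusted p = 0.384 to 0.948, limma), where 4.77% of all genes were called. None of the 9 had an unadjusted p under 0.05 in this comparison, while 3122 of all 17097 genes had one. For Gapdh the 95% interval of the difference between SD-101+anti-PD-1 and saline was -0.33 to 0.18, below the difference of 0.51 seen with the triple treatment, and for Hk2 the interval between SD-101 and saline was -1.11 to 0.62.

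Over all 4 groups, the moderated F test called Hif1a (adjusted p = 0.0162), Gapdh (0.0223), Pfkp (0.0229) and Hk1 (0.0332), 4 of the 9 genes, with 8.85% of all genes called. Without saline array 3 the test called 2 of the 9, and without triple-treated array 1 or 4 it called 1. The order of the group means was the triple treatment first for each of the 9. For Hif1a the means were 9.76 ± 0.122, 9.44 ± 0.186, 9.26 ± 0.088 and 9.24 ± 0.224 (SD, n = 4, 5, 6 and 5) with the triple treatment, SD-101+anti-PD-1, SD-101 and saline. Neighbours in this order were not called (adjusted p = 0.140, 0.384 and 0.988, limma). For Hk1 the means followed the same order on the probe set used, at 8.54, 8.30, 8.20 and 8.09. On its second probe set, at a mean level of 6.58, they did not. There SD-101+anti-PD-1 differed in log2 by -0.16 from SD-101 and by -0.06 from saline. For Pfkp the groups with SD-101 and no a-CD4 had similar means, at 9.12 with SD-101+anti-PD-1 and 9.15 with SD-101, between 9.44 with a-CD4 added and 8.79 with saline. For Gapdh the 3 other groups lay between 11.84 and 11.93, and the group with a-CD4 was at 12.43.

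Among arrays of 1 group, 6 of the 9 genes varied together, and they were singled out after their values were seen. The other genes, Hif1a, Hk1 and Pfkp, did not form a set of their own. With group means removed, Aldoa, Gapdh, Pgk1, Pkm and Ldha correlated with each other at r = 0.837 to 0.959 over the 20 arrays (10 pairs, median 0.918), and Hk2 correlated with them at 0.825 to 0.859. Hif1a, Hk1 and Pfkp correlated with each other at -0.179 to 0.425 and with those 5 enzymes at -0.176 to 0.431 (15 pairs, median 0.0287). These values describe the arrays, which share their tumour model and processing, and carry no p. Saline array 4 and array 2 of the triple treatment were the highest of their groups for all 6 of the genes that varied together. Without those 2 arrays the 10 pairs correlated at 0.786 to 0.939. The place of Hif1a rested on those 2 arrays: without them it correlated with the 6 genes at 0.439 (Pkm) to 0.749 (Ldha), while its values over all 20 arrays were 0.222 to 0.521.

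**Figure D3:**
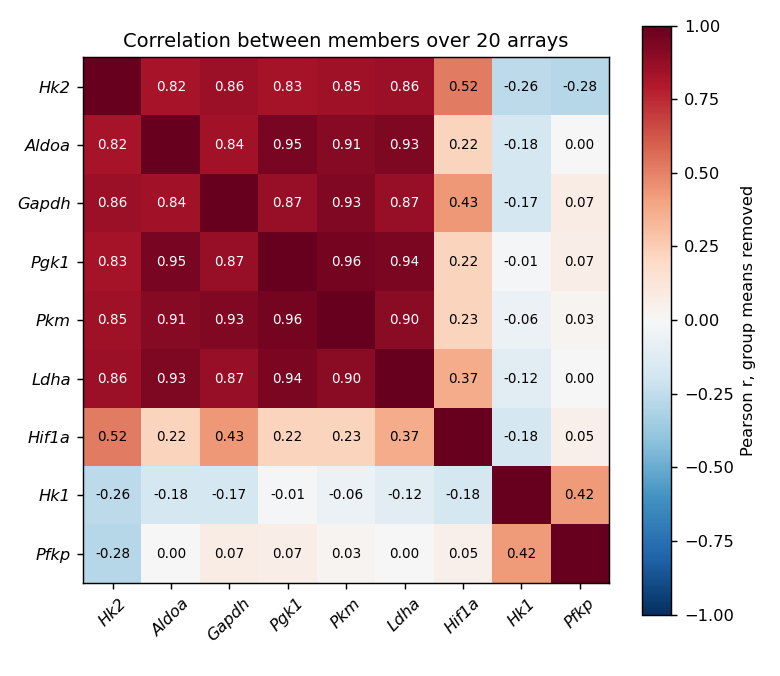
Pearson correlation of each pair of the 9 genes over 20 arrays after the group means were removed (colour scale from -1 to 1). Hk2, Aldoa, Gapdh, Pgk1, Pkm and Ldha form a block of high values, and Hk1 and Pfkp do not join it; Hif1a lies between, at 0.22 to 0.52.

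The same 6 genes followed the expression of other HIF targets. With the mean of 12 other HIF target genes on an array, which include Car9 (a carbonic anhydrase) and Ndrg1, they correlated at r = 0.866 to 0.945, while Hif1a, Hk1 and Pfkp correlated at -0.134 to 0.329 (20 arrays, group means removed). Without saline array 4 and triple-treated array 2 the values of the 6 were 0.734 to 0.91, and that of Hif1a was 0.572. Car9 had log2 levels of 7.04, 9.27, 3.75 and 6.31 with the triple treatment, against 5.87, 5.75, 3.85, 8.92 and 3.27 with saline, a range far wider than that of any of the 9 genes. It was highest on the same 2 arrays as Pgk1 and the other 5. None of the 12 HIF targets rose against saline, and Vegfa, the vascular growth factor, fell (log2 difference -0.96, SE 0.237, adjusted p = 0.0192, limma).

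The 6 genes ran against the T cell genes of the samples. With the mean of 11 T cell identity genes (Cd3e, Cd8a and others) they correlated at r = -0.817 to -0.679, while Hif1a, Hk1 and Pfkp correlated at 0.00464 to 0.438. Without the same 2 arrays the values of the 6 were -0.807 to -0.684, that of Pfkp 0.774 and that of Hif1a -0.32. On array 2 of the triple treatment the T cell identity mean was 8.58, the lowest of all 20, and Cd8a was 9.45. On saline array 4 Cd8a was 10.13. None of the 11 genes was called between the triple treatment and saline (median log2 difference 0.12). With the mean of 16 lung epithelial genes the 6 genes correlated at r = -0.212 to 0.264. That range rested on saline array 4 and triple-treated array 2: without them the values were 0.204 (Gapdh) to 0.61 (Hk2). Single epithelial genes differed: Krt8, a keratin that was picked from this list after its values were seen, was highest of its group on saline array 4 and triple-treated array 2 (10.85 and 11.70), while Epcam, an adhesion molecule of epithelia, was not (8.63 and 8.88, against up to 9.38 with saline and 8.98 with the triple treatment). With Krt8 and with Krt18, a second keratin picked in the same way, the 6 genes correlated at r = 0.805 to 0.929 (group means removed). Without those 2 arrays these values were 0.686 to 0.927. The other genes of this list were not correlated singly with the 6. The part of other cells in the levels of the 6 genes was not tested.

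**Figure D4:**
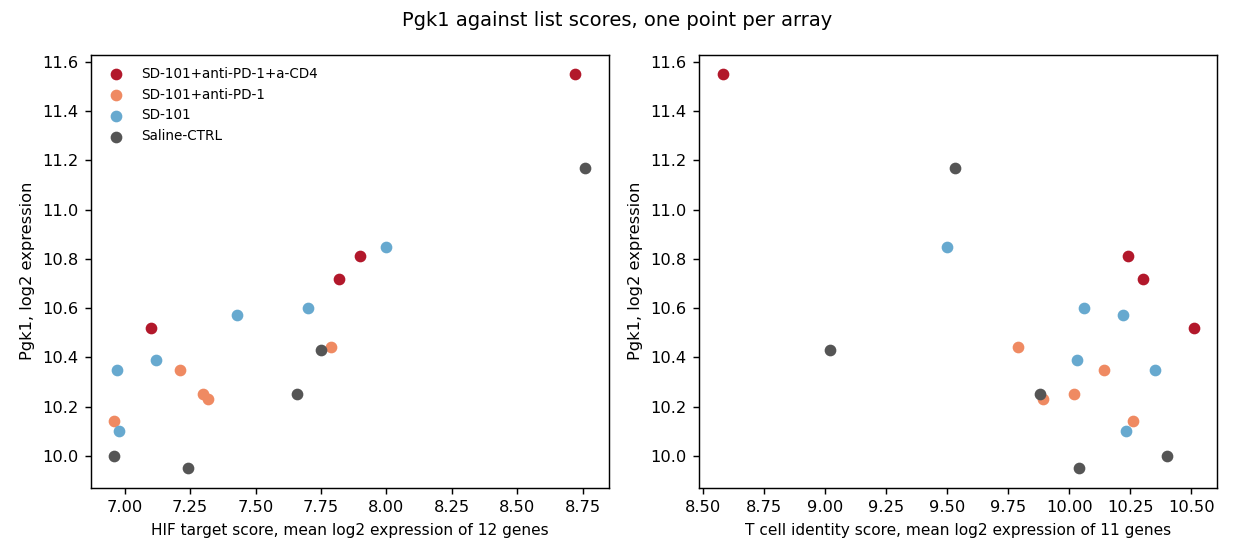
Log2 expression of Pgk1 (y axis) against the mean log2 expression of 12 other HIF target genes (left) and of 11 T cell identity genes (right), with 1 point per array coloured by group. Pgk1 is higher where the HIF targets are higher and lower where the T cell genes are higher, and array 2 of the triple treatment is highest for Pgk1 and lowest for the T cell genes.

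Genes of cell division moved with the group as well. Of 19 cell cycle genes, 16 rose with the triple treatment against saline, where 4.09% of all genes rose, with Mki67, a marker of dividing cells, at a log2 difference of 1.77 (SE 0.269, adjusted p = 0.00101, limma). Their mean was 8.37, 8.94, 8.47 and 8.44 with the triple treatment, against 7.52, 6.76, 6.30, 7.89 and 6.98 with saline, and no array of the first group lay within the range of any other group. Against SD-101 1 of the 19 rose (0.573% of all genes), and against SD-101+anti-PD-1 3 rose (0.948% of all genes). The correlation with this mean, group means removed, was 0.714 to 0.881 for the 6 genes that varied together and 0.0855 to 0.289 for Hif1a, Hk1 and Pfkp (0.635 to 0.817 and 0.00569 to 0.361 without those 2 arrays). With the cell cycle mean as a term of the fit, added after the data were seen, no gene of the 9 was called against saline. Over all 17097 genes 4 were called in this fit, against 1218 without the term. The ranges of this mean did not overlap between these groups, so the fit cannot separate the term from the group. Of the 9 differences, 6, those of the genes that varied together, turned negative. The median of the 9 was -0.233 and the lowest -1.09, with Gapdh at -0.067, while Hif1a, Hk1 and Pfkp were at 0.36, 0.41 and 0.50 (adjusted p = 0.574, 0.479 and 0.51, limma). With the T cell identity mean as a term instead, 8 of the 9 genes were called, all but Hk2, and Gapdh differed by 0.55 (adjusted p = 0.00175, limma). Calls over all 17097 genes also increased in that fit, to 2661 from 1218 without the term.

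Markers of other cells differed between the same groups. Of 14 endothelial genes, 13 fell with the triple treatment against saline, where 3.03% of all genes fell, and their mean was 6.65 to 7.92 (n = 4) against 8.01 to 9.88 (n = 5). None of 8 neutrophil genes was called, and 7 of the 8 had a difference above 0 (median 0.95). Their mean was 9.27, 6.08, 3.70 and 5.86 with the triple treatment, against 10.24, 3.29, 3.52, 3.25 and 3.22 with saline. Array 1 of each group was the highest, and the other triple-treated arrays lay above the other saline arrays. Without the 2 highest arrays, Hk1 and Pfkp were the 2 genes called against saline, with Hif1a at an adjusted p of 0.0551 and Gapdh at 0.0536 (limma). With the means of endothelial, lung epithelial, macrophage and B cell genes as terms, no gene of the 9 was called, at log2 differences of 0.43 for Hif1a, 0.49 for Hk1, 0.54 for Pfkp and 0.52 for Gapdh (adjusted p = 0.388, 0.251, 0.256 and 0.361, limma). Over all 17097 genes 1 was called in this fit, against 1218 without these terms. The ranges of the endothelial mean did not overlap between these groups, so the fit cannot separate that term from the group. With the 9 arrays of the 2 groups alone in the fit, none was called either, at unchanged differences (adjusted p = 0.0749, 0.0821, 0.0641 and 0.112, limma).

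**Figure D5:**
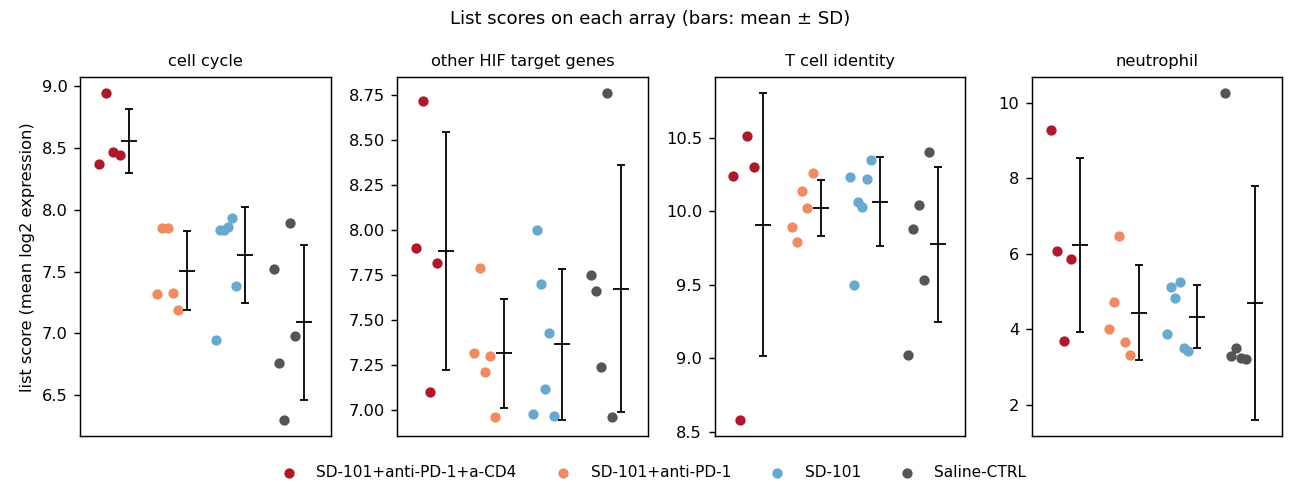
Mean log2 expression (y axis) of the cell cycle, other HIF target, T cell identity and neutrophil genes on each array, with mean ± SD at the right of each group. The cell cycle mean separates the triple treatment from the other groups, and single arrays stand apart in the 3 other panels.

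Of 46 other genes of glucose metabolism in 5 lists, 2 rose against saline and none fell, a share of 4.35% that lies near the 4.09% of all genes that rose. None of 7 glucose and lactate transport genes and none of 6 gluconeogenesis genes was called (0 in each at an unadjusted p under 0.05): Slc2a1, the main glucose transporter of activated T cells, differed by 0.44 (adjusted p = 0.555, limma) and Slc2a3 by 0.04 (adjusted p = 0.964). None of 15 other glycolytic enzymes and isoenzymes was called (2 at an unadjusted p under 0.05), among them Tpi1, triose phosphate isomerase, at 0.76 (adjusted p = 0.341), and Ldhb, the lactate dehydrogenase subunit of the heart, at -0.09 (adjusted p = 0.941). Of 13 genes that control the flux, 1 rose: Pdk3, a kinase that holds pyruvate dehydrogenase inactive, by 0.75 (SE 0.151, adjusted p = 0.00524). Of 5 pentose phosphate genes, 1 rose: Pgls, 6-phosphogluconolactonase, by 0.44 (SE 0.114, adjusted p = 0.0245).

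Partners and regulators of HIF-1 gave 1 call among 8 genes, where 7.12% of all genes were called. Epas1, which encodes HIF-2 alpha and is high in endothelial cells, fell by 1.48 in log2 against saline (SE 0.327, adjusted p = 0.00972, limma), alongside the endothelial genes above. Arnt, the partner subunit of HIF-1 alpha, differed by -0.07 (adjusted p = 0.796). None of 7 Myc and mTORC1 genes was called (0 at an unadjusted p under 0.05), with Myc at -0.56 (adjusted p = 0.260). With the triple treatment against SD-101 and against SD-101+anti-PD-1, none of the genes of these 8 lists was called. Few genes were called there in all, 0.983% and 2.13%.

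The 5 genes most like Hif1a over the 20 arrays were Tmem263 (Pearson r = 0.905), Ap5b1 (0.867), Slc38a4 (0.852), Hacd2 (0.837) and Actg1 (0.805). With group means removed the values were 0.737, 0.817, 0.657, 0.495 and 0.562. These 5 were picked as the highest of all genes and are a description.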

How the data were processed

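Biotin-labelled RNA of 20 samples was hybridised to Affymetrix arrays, 1 array per sample. Values are log2 expression per probe set as the authors deposited them, between 1.78 and 13.44, and the arrays had medians near each other (3.52 to 3.75); per the submitters' processing notes, affy, RMA and limma were used and the genome build mm8 was named, without versions, roles or order. The deposited values were used without further normalization.

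Of 45141 probe sets, 28898 were listed with 1 gene symbol in the platform's annotation. For each of 17097 genes the probe set of highest mean over all arrays was taken, with no filter on level; all 9 genes described passed the filter used as an alternative (mean log2 of at least 5). The 4 groups were fitted together in limma 3.58.1 (R 4.3.3) with group means as terms and empirical Bayes moderation. The tests of 6 comparisons and of the 4 groups together were 2-sided, and p-values were adjusted by Benjamini-Hochberg over all genes of a comparison, with calls at 0.05. The fit was tested on simulated data. A list mean averages the log2 values of the measured genes in a list, array by array. Promoter motifs were counted in RefSeq windows (GRCm38.p6).

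The genes described, the gene lists, the comparisons and the alternatives were chosen with earlier results of these data known. Named genes were all 10 listed ones, Slc2a1, Slc2a3, Eno1, Tpi1, Gpi1, Ldhb, Myc and Arnt, up to 4 called genes of smallest p per list and comparison, and the 5 genes most like the one with the smallest F p. Car9, Ndrg1, Krt8, Krt18, Epcam and Mki67 were singled out after their values were seen. Eno1 and Gpi1 have no probe set with 1 symbol and were not analysed here. No 2 arrays were copies of each other (correlations of 0.927 to 0.993).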

Additional observations from a re-analysis of the deposited data

How the results depend on the processing

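Against saline, the triple treatment (SD-101, anti-PD-1 and a-CD4) had 4 of the 9 genes called, and 3 to 7 when 1 array was left out (7 without saline array 4); Hif1a, Hk1 and Pfkp kept their calls in all 20 such fits, and Gapdh lost it in 3 (adjusted p = 0.0694 without saline array 3, 0.0537 without triple-treated array 1, 0.0715 without triple-treated array 2). The count was 0 with only the 2 groups in the fit, 2 with the mean of all probe sets of a gene, 0 with 4 cell type means as terms, 2 without the 2 arrays of high neutrophil mean, 0 with the cell cycle mean (where 6 of 9 differences were negative, with a median of -0.233 and Gapdh at -0.067; against SD-101 and SD-101+anti-PD-1 5 of 9 were above 0, the lowest at -0.189 and -0.676) and 8 with the T cell identity mean. Without the 2 arrays of high HIF target mean Hif1a, Hk1, Pfkp and Gapdh kept their calls. Against SD-101 the count was 1, with 0 to 2 when 1 array was left out. It was 0 with the mean of probe sets, median centring, quantile normalization, the 4 cell type means, the cell cycle or neutrophil mean, or without the 2 arrays of lowest T cell identity, high HIF target or high neutrophil mean, 2 with the filter on level, and 3 with array weights or the T cell identity mean. Against SD-101+anti-PD-1 the count was 1, with 0 to 2 when 1 array was left out, 4 with array weights or the T cell identity mean, and 0 with the 4 cell type means, the cell cycle or neutrophil mean, or without the 2 arrays of lowest T cell identity, high HIF target or high neutrophil mean. With the replicate number as a block it was 0 (Gapdh adjusted p = 0.0561, limma). Deviations of same-numbered arrays of different groups from their group means correlated at -0.391 to 0.515, with 9 of 27 pairs above 0.1. The labels do not say what the number stands for, and whether same-numbered arrays share a batch was not tested. Over the 4 groups the count was 4, with 1 to 4 when 1 array was left out, 2 with the mean of probe sets or the replicate block, 1 without the 2 arrays of lowest T cell identity, 0 without those of high neutrophil mean, with the 4 cell type means or with the cell cycle mean, and 8 with the T cell identity mean. SD-101+anti-PD-1 against saline had 0 called, and 1 (Pkm) with the cell cycle mean; the 2 other comparisons had 0 under all settings and 0 to 0 when 1 array was left out. The cause of these shifts was not tested. The covariates other than the 4 cell type means and the 2 array removals other than lowest T cell identity were chosen after seeing the data.

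Listed next are the settings in which the count of called genes, over all genes, differed from the main fit by more than 1.5 times. Counts were 57 for SD-101 against saline, with 10 (2 groups), 119 (array weights), 1 (4 cell type means), 21 (without high neutrophil arrays) and 22 (cell cycle mean). For SD-101+anti-PD-1 against saline they were 962, with 599 (filter), 1953 (weights), 1 (4 means) and 1505 (T cell identity mean). For the triple treatment against saline they were 1218, with 476 (2 groups), 1 (4 means), 4 (cell cycle) and 2661 (T cell identity). For SD-101+anti-PD-1 against SD-101 they were 816, with 1332 (2 groups), 424 (filter), 2760 (weights) and 0 (4 means). For the triple treatment against SD-101 they were 168, with 56 (2 groups), 603 (weights), 0 (4 means), 51 (lowest T cell identity), 55 (high HIF), 38 (high neutrophil), 0 (cell cycle), 35 (neutrophil mean) and 673 (T cell identity). Against SD-101+anti-PD-1 they were 364, with 132 (filter), 1246 (weights), 242 (block), 2 (4 means), 62 (lowest T cell identity), 89 (high HIF), 62 (high neutrophil), 0 (cell cycle), 151 (neutrophil mean) and 853 (T cell identity). Leaving out 1 array gave 25 to 77, 553 to 1531, 665 to 1263, 317 to 1086, 35 to 221 and 73 to 488 in this order.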

Other observations

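Some genes of glucose metabolism outside the 9 were called in SD-101+anti-PD-1. Of the 46 in 5 lists, 5 rose against SD-101 (10.9%), where 4.77% of all genes were called in either direction. Against saline 2 of the 46 rose (4.35%), no more than the 5.63% of all genes called in either direction. In SD-101+anti-PD-1 against SD-101, Hkdc1, a hexokinase-like gene, rose by 1.64 in log2 (SE 0.377, adjusted p = 0.0178, limma), and Ldhb rose by 1.32 (SE 0.359, adjusted p = 0.0439). Pfkfb2, which sets the level of fructose 2,6-bisphosphate, rose by 0.83 (SE 0.155, adjusted p = 0.00514). The gluconeogenic enzymes Fbp1, fructose bisphosphatase, and Pcx, pyruvate carboxylase, rose by 1.99 (SE 0.434, adjusted p = 0.0138) and 1.57 (SE 0.409, adjusted p = 0.0343). Against saline, Pcx rose by 1.82 (SE 0.427, adjusted p = 0.0152) and Pck2, the mitochondrial phosphoenolpyruvate carboxykinase, by 0.55 (SE 0.159, adjusted p = 0.049).

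Hif1an, which encodes an enzyme that inhibits HIF, rose in SD-101+anti-PD-1 by 0.42 against SD-101 (SE 0.117, adjusted p = 0.0454, limma) and by 0.50 against saline (SE 0.122, adjusted p = 0.0196), and Epas1 fell by 1.39 against saline (SE 0.309, adjusted p = 0.00997). Both comparisons share the SD-101+anti-PD-1 arrays. Of 14 endothelial genes, 13 fell against saline in the same group (median -3.33); Epas1 is high in endothelial cells. There the mean log2 level of 7 genes of ciliated airway cells was 6.50 to 7.35, against 4.12 to 5.87 with SD-101 and 3.69 to 5.59 with saline; the part of these cells and of endothelial cells in the changes named here was not tested.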
